A study of Mus musculus with 2 samples.

Results

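The genes examined here are 44 mouse genes that license origins of DNA replication and build the replication fork, set beside the 21887 protein-coding genes of the RefSeq annotation. They were taken as a named list, called members in the plots, and a Myc-Tag ChIP-seq interval was counted at a gene when 1 bp or more of it fell in the gene body or in its 10 kb flanks. The material was a T-cell lymphoma of Lck-Dlx5 transgenic mice on the C57BL/6 strain, in which the Lck promoter drives Myc-Tag-labeled Dlx5, a homeodomain transcription factor, in T cells. The antibody against the Myc-Tag captured the product of the transgene, and an input library, for which the strain is written C57BL/7, was deposited beside it. The labels call the sample a primary tumor, whereas the methods name a cell line and an IgG control. The control behind the calls is not given in the sources used here, and neither is the age of the animal. There was 1 library per group, so none of the values below has a replicate check and no test between conditions could be made. The deposited Myc-Tag calls comprised 3477 intervals, each with 1 summit, and the input calls comprised 28. The height of a summit is a whole number of unstated normalization, and without read totals the depth behind it is unknown. Intervals give no expression level, and the labelled cell type was not checked against marker genes.

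Replication is prepared when the origin recognition complex (Orc1 to Orc6), with Cdc6 and Cdt1, loads the ring-shaped helicase of Mcm2 to Mcm7 onto DNA. The loaded helicase is fired in S phase by Cdc7 kinase and by the recruitment of Cdc45 and the GINS complex, after which primase, the polymerases, the sliding clamp Pcna and its loader copy the strands. Most of these genes are transcribed periodically in dividing cells under E2F factors, and they are abundantly expressed in cycling thymocytes and T-cell lymphomas.

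The data show Myc-Tag intervals at 17 of the 44 genes (38.6%), against 19.0% of all protein-coding genes by the same rule. The 17 genes held 24 separate intervals, of which 0 were also called in the input. Of all 3477 Myc-Tag intervals only 28 overlapped an input interval, so the 0 does not set these 24 apart. At 11 of the 17 genes (25.0% of the 44, against 12.8% of all protein-coding genes) at least 1 summit was nearer to an end of the replication gene than to an end of any other protein-coding gene. These 11 were Mcm6, Mcm9, Cdt1, Gmnn, Gins3, Pcna, Pold3, Rfc4, Fen1, Rrm1 and Rrm2. At the other 6, namely Mcm2, Mcm4, Mcm7, Mcm8, Orc1 and Prim1, each summit lay closer to an end of a neighbour. A summit lay within 1 kb of a gene end at 12 of the 44 genes (27.3%), against 10.8% of all protein-coding genes. The remaining 27 genes had no interval, so that binding there was not detectable at the calling threshold.

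**Figure D1:**
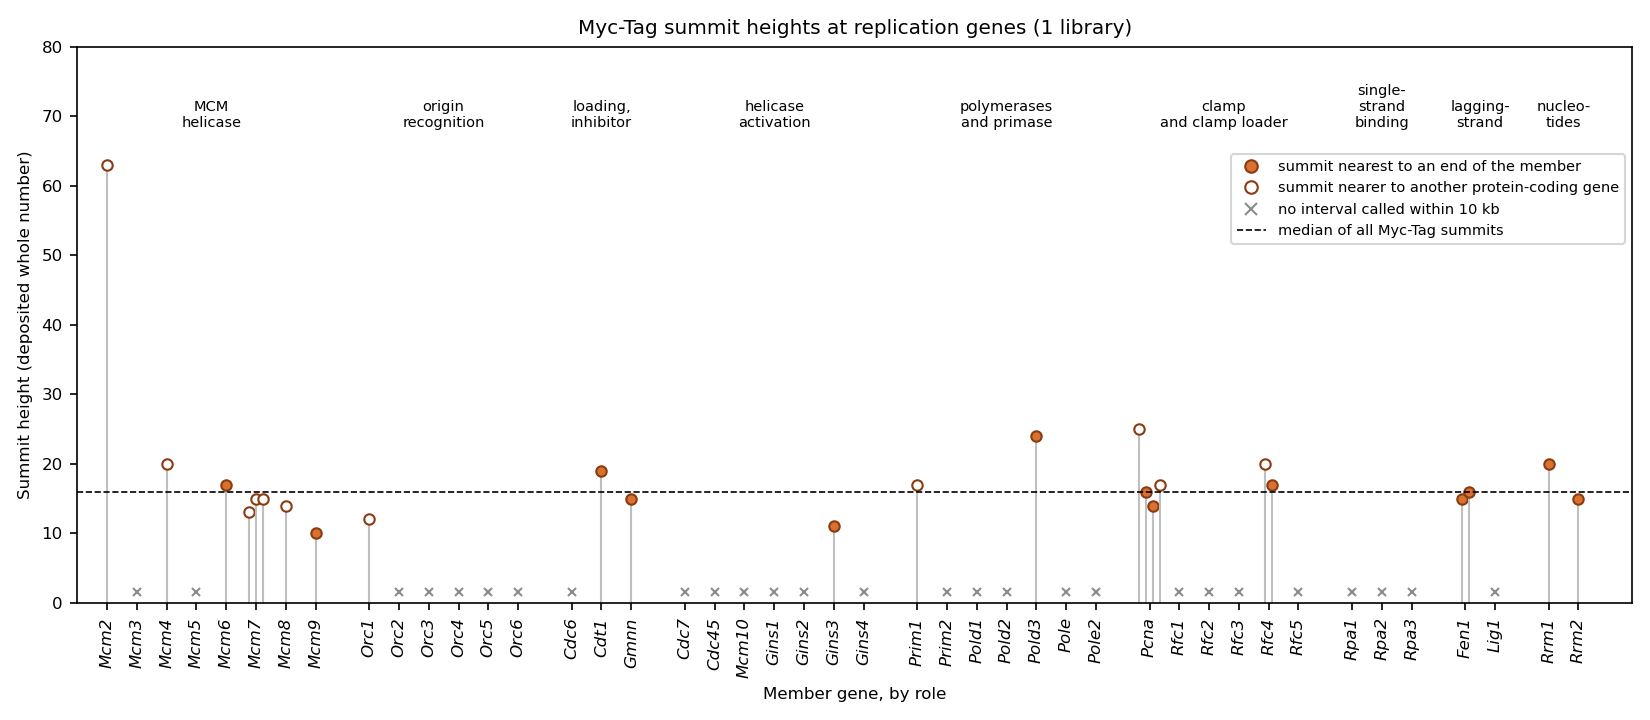
Summit height (vertical axis, deposited whole number) of each Myc-Tag interval at the 44 genes, grouped by role, in 1 library. Filled points lie nearest to the named gene, open points nearer to another protein-coding gene, and crosses mark genes without an interval; apart from the summit of 63 counted at Mcm2, all heights lay between 10 and 25, around the median of 16 of all summits (dashed line).

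To show the sequence at these sites, promoter windows from 250 bases before to 50 bases after the annotated start were taken from RefSeq (GRCm38.p6) for 36 of the 44 genes. Mcm4, Gmnn, Gins1, Gins2, Gins4, Prim2, Pole and Rfc2 were not matched. Short words, which may overlap each other, were searched on both strands. They were TAATT, the core bound by homeodomain proteins, CCAAT, the box of the factor NF-Y, the E2F words (TTTCCCGC or TTTCGCGC or TTTGCCGC or TTTGGCGC, counted as 1 group), the E-box CACGTG, the GC box GGGCGG and the Ets core CCGGAAG. Printed here are Mcm6, Orc1, Gins3 and Pold3, which had an interval over the start and an E2F word, Rrm1 and Fen1, which had an interval over the start without an E2F word, and Mcm5, which had E2F words and no interval. Capitals mark the homeodomain core, the NF-Y box and the E2F words on either strand, and each window is written 5′ to 3′ along the gene.
Mcm6, chr1:128359656-128359955, strand -: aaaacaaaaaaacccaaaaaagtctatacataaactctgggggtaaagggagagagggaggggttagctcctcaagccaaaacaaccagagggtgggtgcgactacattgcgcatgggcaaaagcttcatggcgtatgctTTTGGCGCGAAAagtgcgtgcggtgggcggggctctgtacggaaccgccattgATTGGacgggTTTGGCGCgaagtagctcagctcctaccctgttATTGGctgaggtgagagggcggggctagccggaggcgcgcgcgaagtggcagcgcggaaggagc
Orc1, chr4:108579204-108579503, strand +: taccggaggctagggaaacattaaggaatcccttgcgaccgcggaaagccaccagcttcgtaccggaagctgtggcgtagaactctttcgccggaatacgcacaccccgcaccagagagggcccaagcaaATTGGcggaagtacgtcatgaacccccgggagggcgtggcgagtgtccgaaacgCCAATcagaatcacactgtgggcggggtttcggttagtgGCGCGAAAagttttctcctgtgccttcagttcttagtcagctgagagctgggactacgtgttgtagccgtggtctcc
Gins3, chr8:95633309-95633608, strand +: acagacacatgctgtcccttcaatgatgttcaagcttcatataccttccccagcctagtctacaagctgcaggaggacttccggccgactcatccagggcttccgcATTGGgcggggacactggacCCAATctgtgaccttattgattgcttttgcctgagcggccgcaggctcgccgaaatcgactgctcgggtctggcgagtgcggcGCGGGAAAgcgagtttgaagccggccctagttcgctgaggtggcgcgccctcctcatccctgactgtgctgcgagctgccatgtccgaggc
Pold3, chr7:100121453-100121752, strand -: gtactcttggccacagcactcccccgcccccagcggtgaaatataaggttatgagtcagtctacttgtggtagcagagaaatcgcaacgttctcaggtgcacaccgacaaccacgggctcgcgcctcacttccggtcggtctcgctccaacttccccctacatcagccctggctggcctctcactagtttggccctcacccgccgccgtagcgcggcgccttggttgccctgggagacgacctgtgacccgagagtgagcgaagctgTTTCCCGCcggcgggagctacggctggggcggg
Rrm1, chr7:102441445-102441744, strand +: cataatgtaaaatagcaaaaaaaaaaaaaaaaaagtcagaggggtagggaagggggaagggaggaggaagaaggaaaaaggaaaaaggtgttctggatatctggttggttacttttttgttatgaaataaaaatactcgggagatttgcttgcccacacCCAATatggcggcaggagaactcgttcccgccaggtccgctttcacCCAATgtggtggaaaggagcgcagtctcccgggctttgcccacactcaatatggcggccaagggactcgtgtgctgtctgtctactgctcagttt
Fen1, chr19:10204344-10204643, strand -: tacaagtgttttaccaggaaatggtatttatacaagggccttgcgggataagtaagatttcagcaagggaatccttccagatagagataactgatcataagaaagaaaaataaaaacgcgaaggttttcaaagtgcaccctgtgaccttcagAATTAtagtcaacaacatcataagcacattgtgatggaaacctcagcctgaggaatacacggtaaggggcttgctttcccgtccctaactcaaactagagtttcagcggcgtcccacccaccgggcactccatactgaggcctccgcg
Mcm5, chr8:75109259-75109558, strand +: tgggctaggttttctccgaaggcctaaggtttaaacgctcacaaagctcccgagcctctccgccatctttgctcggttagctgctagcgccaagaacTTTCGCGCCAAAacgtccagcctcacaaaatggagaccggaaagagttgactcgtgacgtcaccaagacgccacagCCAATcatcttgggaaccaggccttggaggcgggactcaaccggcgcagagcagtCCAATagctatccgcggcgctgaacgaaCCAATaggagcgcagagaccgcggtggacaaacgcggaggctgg

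At Mcm6 the interval covered all 300 bases of the window. This window holds 3 E2F words, the first bases of which lie 110, 106 and 47 bases before the start, and a pair of CCAAT boxes. At Orc1 and Gins3 the interval also covered the whole window, which carries 1 E2F word and 2 CCAAT boxes in each. The Pold3 window, likewise covered, has 1 E2F word that begins 17 bases after the start and no CCAAT box. The interval covered 227 bases of the Rrm1 window, with 2 CCAAT boxes, and 222 bases of the Fen1 window, with 1 TAATT. The Mcm5 window also combined E2F words, of which it had 2, with CCAAT boxes, of which it had 3, and the nearest Myc-Tag summit was 115 kb from the gene.

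Among the genes of the MCM family, 6 of 8 had an interval, against 19.0% of all protein-coding genes. At 2 of the 8 a summit was nearest to the MCM gene itself. This share of 25.0% was the same as in all 44 genes, against 12.8% of all protein-coding genes. Mcm6, a subunit of the helicase ring, had an interval on chromosome 1 from 128359127 to 128359987 with a height of 17, and its summit lay inside the gene, 185 bp from the start. Mcm9, which acts with Mcm8 in recombination repair, had an interval on chromosome 10 from 53629243 to 53630091. Its summit, inside the gene and 325 bp from the start, had a height of 10, the lowest at any of the 44 genes and exceeded by 3367 of the 3477 Myc-Tag summits.

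At the other ring subunits the intervals were shared with or closer to a neighbour. The summit counted at Mcm2, on chromosome 6 from 88901874 to 88902930, had a height of 63, and only 17 Myc-Tag summits (0.489%) were taller. It lay 3588 bp outside Mcm2 and 117 bp from the start of Tpra1, which encodes a membrane protein, so that the tallest summit of the list belonged to another gene by the rule of distance. At Mcm4 the interval on chromosome 16 from 15636887 to 15638165, with a height of 20, covered an end of Mcm4, and its summit lay 104 bp outside that gene and 60 bp from an end of Prkdc, the catalytic subunit of the DNA-dependent protein kinase.

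Mcm7 had 3 intervals. The summit inside the gene, on chromosome 5 from 138170850 to 138172228 with a height of 15, was 687 bp from the nearer end of Mcm7 and 597 bp from that of Ap4m1, a subunit of a vesicle coat adaptor. RefSeq gives Mcm7 2 starts, however, and this summit was 158 bp upstream of one of them, so that by starts it was nearest to Mcm7. The other summits, with heights of 13 and 15, lay 235 bp from an end of the zinc finger gene Zfp113 and 176 bp from an end of Cops6, a subunit of the COP9 signalosome. At Mcm8 the summit, with a height of 14, was 2411 bp outside the gene and 42 bp from an end of Crls1, the cardiolipin synthase. Mcm3 and Mcm5 had no interval, with the nearest summits 259 kb and 115 kb away.

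In the origin recognition complex, which marks the sites where the helicase is loaded, 1 of 6 genes had an interval (16.7%, against 19.0% of all protein-coding genes). The Orc1 interval on chromosome 4 from 108579181 to 108579651 had a height of 12. Its summit was 3847 bp from the nearer annotated end of Orc1 but 98 bp downstream of its RefSeq start, and 216 bp from the end of Prpf38a, a splicing factor. The starts of Orc1 and Prpf38a run in opposite directions with 118 bp between them, so that both share this interval. The nearest summits to Orc2, Orc3, Orc4, Orc5 and Orc6 were 69.9, 72.3, 88.6, 126 and 247 kb away.

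Of the loading factors, Cdt1 and its inhibitor Gmnn (geminin), which blocks a further round of loading, each had an interval of their own, while Cdc6 had none within 173 kb. This was 2 of 3 genes, against 12.8% of all protein-coding genes. At Cdt1, on chromosome 8 from 122567004 to 122568112, the summit of height 19 lay 303 bp upstream of the start. At Gmnn, on chromosome 13 from 24761043 to 24762278, the summit of height 15 was inside the gene and 177 bp from one of its ends. No other protein-coding gene had an end closer than 6925 bp to the Cdt1 summit or 15166 bp to the Gmnn summit.

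Of the genes that turn the loaded helicase into a moving fork, 1 of 7 had an interval (14.3%, against 19.0% of all protein-coding genes). This was Gins3, a subunit of the GINS complex, whose interval ran on chromosome 8 from 95633246 to 95633885, with the summit 87 bp upstream of the start and a height of 11. A height of 11 was exceeded by 3145 of the 3477 Myc-Tag summits. The nearest summits to Cdc45, which travels with the helicase, and to Gins2 were 65.1 and 78.9 kb away. For Gins1, for Mcm10, for the kinase Cdc7 and for Gins4 the distances were 301, 339, 495 and 633 kb.

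Among the primase and polymerase genes, Pold3, an accessory subunit of polymerase delta, had the tallest summit that was nearest to its own gene. Its interval on chromosome 7 from 100121264 to 100121978 had a height of 24, exceeded by 330 Myc-Tag summits (9.49%), and the summit was 98 bp upstream of the start. The next protein-coding gene end was 37677 bp away. At Prim1, the catalytic subunit of primase, the summit of height 17 was 5394 bp outside the gene and 78 bp from an end of Naca, which encodes a chaperone of nascent polypeptides. Pold1 and Pole2 came close to the limit of distance, with summits 10.9 and 13.7 kb away. Pold2, Pole and Prim2 had none within 34.6, 55.4 and 1132 kb.

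Pcna, the sliding clamp that tethers the polymerases, had 4 intervals on chromosome 2, the most of any of the 44 genes, and 2 of them were nearest to Pcna. The first of these, from 132253036 to 132253588, had its summit 36 bp upstream of the start with a height of 14. The second, from 132252320 to 132252958, had its summit 540 bp downstream of the start with a height of 16. The 2 intervals did not overlap, and the second did not include the start. An end of Cds2, a gene of phospholipid synthesis, lay 122 bp from the summit of height 14. The other intervals counted at Pcna had heights of 25 and 17 and lay 52 bp from the start of Tmem230 and 404 bp from a start of Cds2. The summit of height 17 was 10372 bp from Pcna, so that only the edge of this interval reached the 10 kb flank.

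The clamp loader genes, whose products open the clamp and place it on DNA, had an interval at 1 of 5, against 19.0% of all protein-coding genes. Rfc4 had its own interval on chromosome 16 from 23127416 to 23128114, with the summit 34 bp downstream of the start and a height of 17. A further interval with a height of 20 was 6620 bp outside Rfc4 and 140 bp from an end of Eif4a2, a translation initiation helicase. The nearest summits to Rfc5, Rfc2, Rfc1 and Rfc3 were 24.9, 40.9, 154 and 274 kb away. In the single-strand binding complex 0 of the 3 genes had an interval, against the same 19.0%. The nearest summits were 46.5 kb from Rpa3, 81.4 kb from Rpa1 and 106 kb from Rpa2.

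Of the genes that finish Okazaki fragments, the flap endonuclease Fen1 had 2 intervals on chromosome 19 and the ligase Lig1 had none within 267 kb. The Fen1 interval from 10204001 to 10204565 had a height of 16, and its summit lay 57 bp downstream of the start. An end of Tmem258 was 134 bp from the same summit. RefSeq gives Fen1 2 starts, and the other one, 415 bp from the summit, is divergent from Tmem258 with 281 bp between them. The other interval, from 10198756 to 10199157 with a height of 15, was at the far end of the gene, with the summit 156 bp beyond it. This interval, at 402 bp, was the narrowest of the 24.

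Both genes of ribonucleotide reductase, the enzyme that makes deoxyribonucleotides, had an interval of their own, but at different places. Of all protein-coding genes, 12.8% had such an interval. At Rrm1, the large subunit, the interval on chromosome 7 from 102441518 to 102442061 spanned the start, with the summit 65 bp downstream of it and a height of 20. At Rrm2, the small subunit, the interval on chromosome 12 from 24714824 to 24715425 had a height of 15, and its summit was 1022 bp beyond the end of the gene and 6914 bp from the start. No summit was found within 1 kb of the start of Rrm2.

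The heights at the replication genes lay around the median of the whole library. The 24 intervals had a median height of 16 (range 10 to 63), the 13 nearest to a replication gene a median of 16 (range 10 to 24) and the 11 nearer to a neighbour a median of 17.0 (range 12 to 63). The median of all 3477 Myc-Tag summits was 16, as was that of the 2030 summits within 1 kb of a protein-coding gene end. A height of at least 16 was reached by 7 of the 13 (53.8%) and by 1739 of all 3477. The intervals nearest to a replication gene had a median width of 640 bp, those nearer to a neighbour 972 bp and all Myc-Tag intervals 752 bp.

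**Figure D2:**
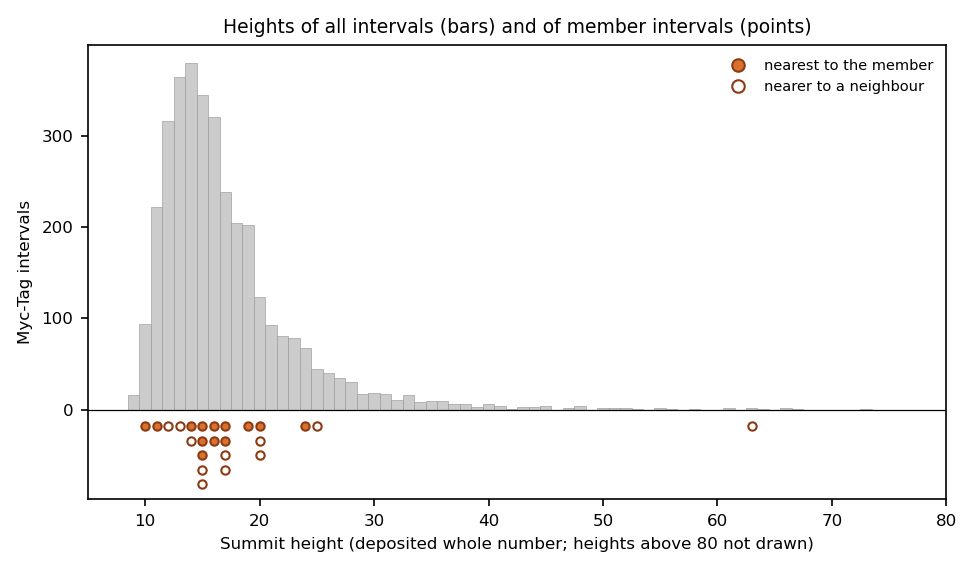
Number of Myc-Tag intervals (vertical axis) at each summit height (horizontal axis, deposited whole number) as bars, with the 24 intervals at replication genes as points under the axis. Filled points (nearest to the replication gene, 10 to 24) lie in the main body of the distribution, and the only point beyond 25 is the open one at 63.

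With respect to position, 15 of the 24 summits lay within 1 kb of an end of the replication gene at which they were counted. Of all 3477 Myc-Tag summits, 58.4% lay within 1 kb of an end of any protein-coding gene. A place near gene ends was thus common in the whole library. These values are not like for like, since the first leaves out ends of neighbours. The 24 were also counted only because they lay in or near the listed genes. Of the 36 genes with a RefSeq start, 11 (30.6%) had a summit within 1 kb of it, against 11.4% of the 17492 protein-coding genes with a RefSeq start and 6 of 33 other replication genes (18.2%). These 11 genes had 12 such intervals, and 11 of the 12 included the start itself. The median distance from summit to start was 98.0 bp (range 34 to 540), and 9 of the 12 lay within 200 bp. On the strand of the gene, 5 summits were upstream and 7 downstream of the start. Since 3329 of the 3477 Myc-Tag summits were placed on a multiple of 16 bp, these distances are not exact to the base.

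**Figure D3:**
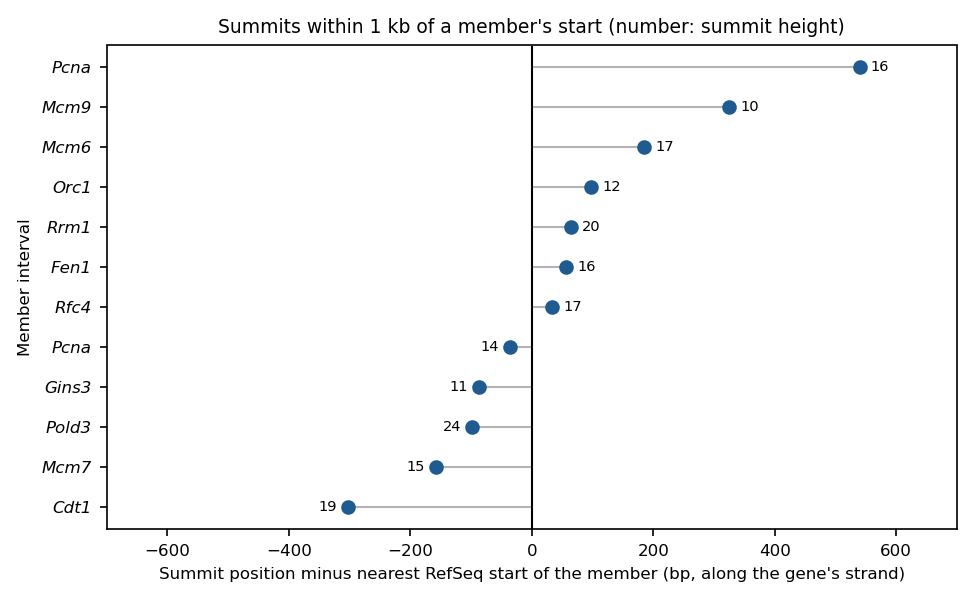
Position of each summit within 1 kb of a start relative to that start (horizontal axis, bp along the strand of the gene, negative upstream), 1 row per interval, with the summit height beside each point. The 12 summits lie from 303 bp upstream (Cdt1) to 540 bp downstream (Pcna), and 9 lie within 200 bp.

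The lengths of the genes with and without an interval overlapped. The 17 genes with an interval had a median length of 13.8 kb (range 3.90 to 93.7) and the 27 without one 20.1 kb (range 3.21 to 216). The nearest summit was at a median of 106 kb from the 27 genes, and 21 of them had none within 50 kb of an end. For all 44 genes the median distance was 43.7 kb, against 134 kb for all protein-coding genes. The regions searched held on average 1.45 other protein-coding genes at the 44 genes and 1.08 at all protein-coding genes. The 44 thus had more neighbours on average whose intervals could be counted, and what this adds to their share was not tested. With intervals nearer to a neighbour left out, the shares were 25.0% of the 44 and 12.8% of all protein-coding genes. Having 2 or more intervals was seen at 4 genes, Mcm7, Pcna, Rfc4 and Fen1 (9.09%, against 3.14% of all protein-coding genes).

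**Figure D4:**
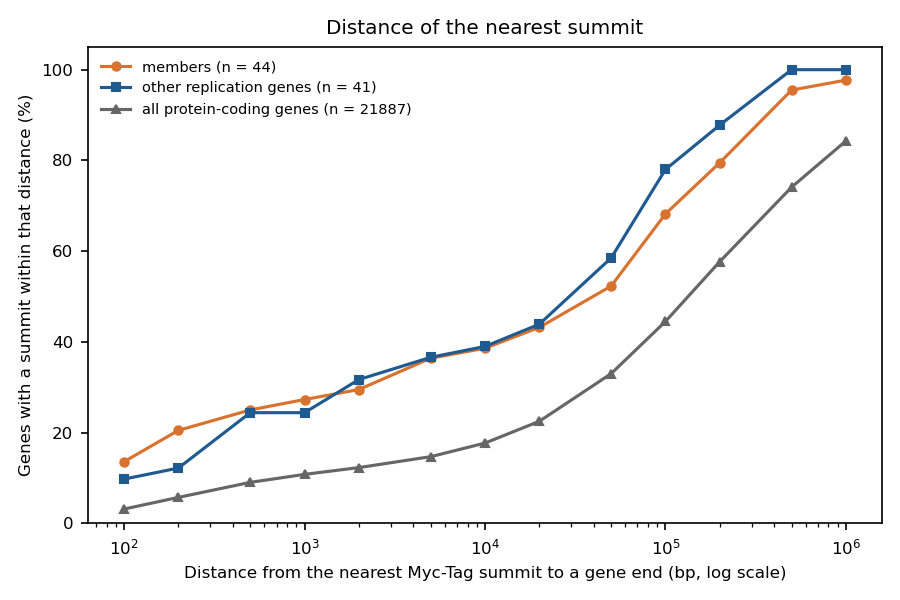
Share of genes (vertical axis, %) that have a Myc-Tag summit within a given distance of either end (horizontal axis, bp on a log scale), for the 44 replication genes, 41 other replication genes and all protein-coding genes. Within 1 kb the shares are 27.3%, 24.4% and 10.8%, and within 100 kb they are 68.2%, 78.0% and 44.5%.

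Divergent starts were common in the list. Of the 36 genes with a RefSeq start, 12 (33.3%) had the start of another gene on the opposite strand within 1 kb, head to head, against 13.2% of all protein-coding genes with a start. A summit within 1 kb of the start was present at 3 of these 12, Mcm7, Orc1 and Fen1 (25.0%), and at 8 of the 24 without a listed divergent start (33.3%). Starts without a promoter window were not counted, so the 12 may be too few. Pcna was counted among the 24, although an end of Cds2 lay 122 bp from its summit of height 14. Among all protein-coding genes the corresponding shares were 23.9% and 9.51%.

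The promoter windows of the replication genes were rich in E2F words whether or not an interval was called. An E2F word was present in 15 of the 45 windows of the 36 genes (33.3%), in 6 of the 13 with a summit within 1 kb (46.2%) and in 9 of the 32 without (28.1%), against 2.85% of the 21263 windows of all protein-coding genes and 6.08% of all 2318 windows with a summit within 1 kb. Of the 15 genes with an E2F word, 6 had a summit within 1 kb of a start, namely Mcm6, Mcm7, Orc1, Cdt1, Gins3 and Pold3, and 9 had none. The latter were Cdc6, Lig1, Mcm3, Mcm5, Mcm8, Orc3, Pold1, Pole2 and Rfc3. Of the 21 genes without an E2F word, 5 had a summit at a start, namely Pcna, Rfc4, Fen1, Rrm1 and Mcm9. Some genes have several windows, which may overlap.

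The homeodomain core was no more frequent in the windows of these genes than in all windows. TAATT was found in 9 of the 45 windows, in 4 of the 13 with a summit within 1 kb (30.8%) and in 5 of the 32 without (15.6%). All windows held it in 23.5% and those with a summit within 1 kb in 14.0%. The windows with a summit and TAATT were those of Mcm7, Mcm9 and Fen1, the last with both of its windows. CCAAT was present in 57.8% of the windows of the replication genes and in 38.2% of all windows, the GC box in 71.1% and 46.2%, the Ets core in 33.3% and 11.6% and the E-box in 13.3% and 7.84%. The window of Rrm2, whose interval lay beyond the far end of the gene, had 1 CCAAT box and no E2F word. The median GC content was 62.3% in the windows of the replication genes, 56.3% in all windows and 63.0% in all windows with a summit within 1 kb. A match of letters does not show that the factor was bound.

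**Figure D5:**
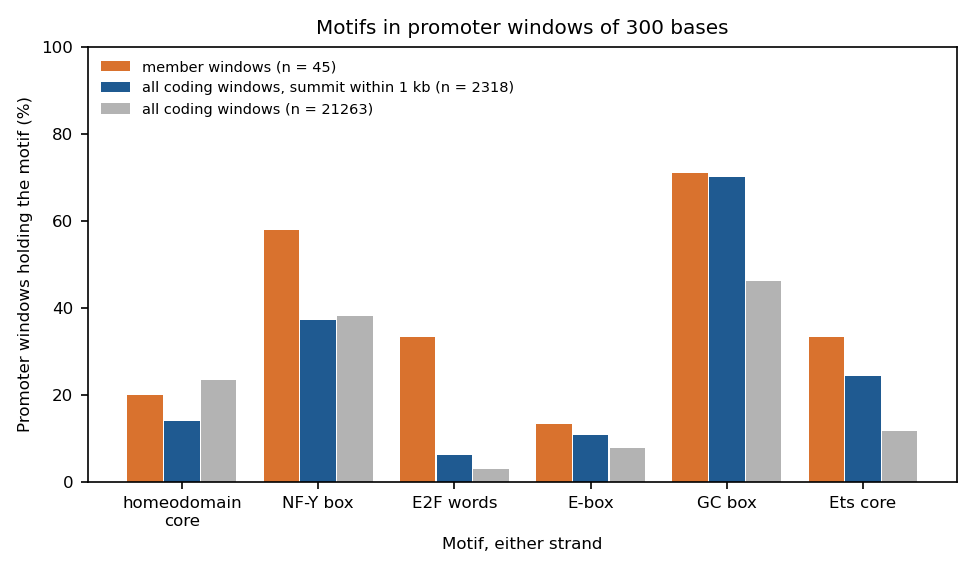
Share of promoter windows (vertical axis, %) that hold each motif on either strand, for the 45 windows of replication genes, the 2318 windows of any protein-coding gene with a summit within 1 kb, and all 21263 windows. E2F words stand at 33.3%, 6.08% and 2.85%, and the homeodomain core stands in 9 of the 45 windows, in 14.0% and in 23.5%.

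Beyond the 44 genes, 41 other genes of replication, S-phase entry and nucleotide supply were counted in the same way. An interval in the body or within 10 kb was present at 16 of them (39.0%), against 19.0% of all protein-coding genes. A summit lay within 1 kb of an end at 10 (24.4%), against 10.8%. The tallest of these summits were at Pole4, a small subunit of polymerase epsilon, with a height of 19, at Mtbp, which takes part in origin firing, with 16, and at the topoisomerase Top2b with 15. Dscc1 and Dut, the latter the enzyme that removes dUTP, followed with 14 each, and Supt16, a subunit of the histone chaperone FACT, with 12. The summit at Lrwd1 had a height of 11, and those at Atad5, which unloads the clamp, and Rnaseh2b a height of 10. Near the Mtbp and Lrwd1 summits, ends of Mrpl13 and Alkbh4 lay 160 and 145 bp away. An interval nearest to the gene itself was present at 11 of the 41 (26.8%).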

How the data were processed

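Genomic DNA recovered with the Myc-Tag antibody and an input were sequenced from a Lck-Dlx5 T-cell lymphoma, with 1 library each. According to the methods, Active Motif sequenced and analysed the libraries (Illumina), with peaks chosen by MACS p-value. The submitters' processing notes name BWA and mm9. The authors deposited for each summit a score that gives its height and whose normalization, calling threshold and control are not given in the sources used here. The positions fitted GRCm38 (mm10): 58.4% of Myc-Tag summits lay within 1 kb of a protein-coding gene end of that build, against 6.53 to 7.56% after moving all positions by 50 or 100 kb, and GRCm38 was used throughout.

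Each summit was joined to its interval, and interval starts are counted from 1. Genes and promoter windows were from RefSeq (GRCm38.p6), with distances to either gene end. Where a summit was closer to an end of another protein-coding gene, it was marked as the neighbour's. The members and lists were chosen with earlier results of these data known. All 44 genes were named, with nearer neighbours and the 10 other replication genes with the tallest summits, of which 1 is not reported here. No p-values were computed. Alternatives were other distances, height thresholds, overlaps, neighbour definitions and strand settings. Python 3.11.15 and matplotlib 3.10.9 were used, and the counting was tested on simulated data.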

Additional observations from a re-analysis of the deposited data

How the results depend on the processing

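Of 25 recomputed values, 19 stayed within 1.5 times the count or median reported. Of the 44 genes, 17 had an interval by the main rule. When only heights from the median (16) upward were kept, 10 of the 44 had one. From the 75th percentile (19) upward the count was 7 of the 44 (Mcm2, Mcm4, Cdt1, Pcna, Pold3, Rfc4 and Rrm1). It was 11 of the 44 when intervals nearer to another protein-coding gene were left out. The shares of all 21887 protein-coding genes under these settings were 10.7%, 6.05% and 12.8%. A summit within 1 kb of an end was present at 12 of the 44, and at 4 of the 44 at the 75th percentile. The share of all protein-coding genes at that percentile was 3.08%. Fewer genes follow from the construction of these alternatives. Searching the strand of the gene alone gave 12 in place of 24 genes with CCAAT and 8 in place of 15 with an E2F word.

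With the gene body alone, 1 kb or 50 kb on either side, the number of the 44 genes with an interval was 13, 14 and 23. The shares of all protein-coding genes under these settings were 13.4%, 14.2% and 33.3%. Assignment by the nearest RefSeq start and counting a summit in place of an interval overlap were chosen after seeing the data. By starts, which left out Gmnn, 14 intervals were nearest to a replication gene in place of 13, with Mcm7 and Orc1 gained. None of the 44 genes lies on chromosome 15, without which the share of all protein-coding genes with an interval was 17.7%. No paired analysis was possible because neither the Myc-Tag ChIP nor the input had a second library, and for the same reason no library was left out. The unknown read depth limits every statement on a gene without an interval.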
